A study of Mus musculus with 11 samples.

Results

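Potassium channel subunits were taken as the 92 genes, of 55536 in the count tables, whose symbol had the form Kcn, 1 or more letters and a number. Their RNA was followed in pancreatic islets of female C57BL/6J mice by bulk RNA-seq of 11 libraries. The mice were 9 weeks old at the start. The multipara group gave birth 3 times, and its islets were taken 3 weeks after the last delivery, whereas the virgin group consisted of littermates that were not mated. The groups were virgin untreated (n = 2), multipara untreated (n = 2), virgin S-961 (n = 3) and multipara S-961 (n = 4), where S-961 is an insulin receptor antagonist given for 3 days. All animals were wild type and none carried a transgene. The number of mice per library was not given in the sources used here, so that p-values measure only the spread between these libraries.

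Potassium channels set the membrane potential of islet endocrine cells. In β cells, ATP from glucose metabolism closes the ATP-sensitive channel, built from the pore subunit *Kcnj11* and the sulfonylurea receptor *Abcc8*, and the resulting depolarisation opens calcium channels and releases insulin. Voltage-gated and calcium-activated channels then end each action potential, and two-pore-domain channels carry a background current that holds the cell near its resting potential.

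The libraries held 22028507 to 32234146 counts. The 2 insulin genes took 35.3% to 41.4% of the counts of the untreated libraries and 13.2% to 20.7% with S-961, and the 92 channel genes together took 0.0884% to 0.154%. The 9 β cell markers, *Kcnj11* among them, were all detected. Summed markers of acinar cells, the enzyme-secreting cells around the islets, were at 59.2 to 134 CPM, the counts scaled to library size with the TMM factors of edgeR, in untreated libraries and at 1478 to 10386 CPM with S-961. The library labelled multipara S-961 4 lay nearer to the mean of the virgin S-961 libraries than to that of the other multipara S-961 libraries for 48 of 68 channel genes (70.6%) and for 68.2% of all genes tested. Summed cycling markers were at 116 to 257 CPM in multipara S-961 1 to 3 and at 7.08 to 23.4 CPM in the other 4 S-961 libraries, multipara S-961 4 among them, so that this split did not follow the labels. Whether the parity labels of the S-961 libraries are right was not tested. The accessory gene *Lrrc55*, whose values are given below, was far higher in multipara than in virgin libraries without treatment. With S-961 it was lower in multipara S-961 1 to 3 than in the other 4 libraries. Every multipara or virgin direction with S-961, the S-961 contrasts within a parity group and the interaction rest on the parity labels as deposited. Separation of all 7 treated from all 4 untreated libraries does not. The library labelled multipara untreated 1 held 706 CPM of macrophage, 211 CPM of lymphocyte and 2363 CPM of red cell markers, against highest values of 169, 34.1 and 693 CPM elsewhere, and 77.2 CPM of cycling markers, against at most 14.2 CPM in the other untreated libraries. Counts of called channel genes that rest on either library are given with and without it.

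Most of the family was low in islets. Of the 92 genes, 52 had at least 10 counts in all 11 libraries, 18 reached 10 counts in none, and 5 (*Kcna10*, *Kcne1*, *Kcnk15*, *Kcns2* and *Kcnv1*) had no count at all, which over 321960272 counts allows up to 0.00932 CPM each. Levels of different genes were compared as CPM per kilobase of annotated exon, averaged over the 4 group means. On this scale 27 genes reached 1, 13 genes reached 5 and 6 genes reached 10. The 10 highest genes held 80.0% to 87.8% of the summed level of the family, depending on the library.

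**Figure D1:**
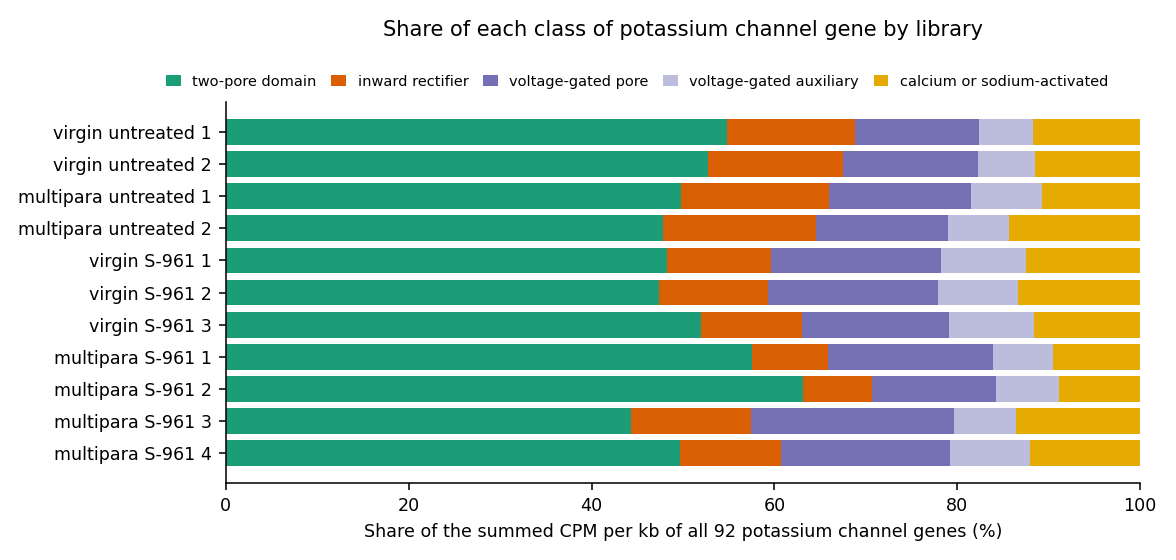
Share of the summed level per length of all 92 potassium channel genes (horizontal axis, %) taken by each class in each of the 11 libraries (bars). The two-pore-domain genes hold 44.3% to 63.1% in every library, most of it Kcnk16, and the inward rectifier share is 13.9% to 16.7% in untreated and 7.58% to 13.1% in S-961 libraries.

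By class, the 14 two-pore-domain genes took the largest share of the level per length in each library, 44.3% to 63.1%. The 40 voltage-gated pore genes, of which 11 reached 1 CPM per kb, took 13.5% to 22.2%. The 15 inward rectifiers had 2 genes at that level and a share of 13.9% to 16.7% in untreated libraries against 7.58% to 13.1% with S-961, so that the ranges did not overlap. The voltage-gated auxiliary and the calcium- or sodium-activated genes took 5.94% to 9.33% and 8.84% to 14.4%.

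*Kcnk16*, a two-pore-domain channel of the TALK type found mainly in pancreatic islets, had the highest level per length in each of the 11 libraries (chr14:20261376-20269199, minus strand, GRCm38). Its counts were 421 and 389.8 CPM in the virgin untreated, 311 and 348 CPM in the multipara untreated, 317, 319 and 322 CPM in the virgin S-961 and 422, 489, 266 and 343 CPM in the multipara S-961 libraries. The multipara S-961 libraries were the most spread and overlapped every other group. *Kcnk16* alone was 36.6% to 54.7% of the family, and its level per length was 2.88 to 8.34 times that of *Kcnj11*. No comparison called it, and the untreated multipara against virgin difference was -0.29 ± 0.10 on the log2 scale (edgeR adjusted p = 0.719), where ± is here and below the standard error of the fit.

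*Kcnj11*, the pore of the ATP-sensitive channel, came next (chr7:46093953-46100764, minus strand) and was above *Kcnmb2* in 11 of 11 libraries. Its values were 168 and 171 CPM in the virgin untreated, 152 and 187 CPM in the multipara untreated, 123, 131 and 112 CPM in the virgin S-961 and 94.6, 90.7, 122 and 118 CPM in the multipara S-961 libraries. All 7 S-961 libraries lay below all 4 untreated ones, and the difference was -0.48 ± 0.16 on the log2 scale in virgin (edgeR adjusted p = 0.039) and -0.67 ± 0.15 in multipara mice (edgeR adjusted p = 0.00626). Scaled to library totals instead of by TMM, these became -0.01 and -0.07, with neither called. The virgin call was also lost when any 1 of the 5 virgin libraries was left out (edgeR adjusted p = 0.06 to 0.171), and the multipara call without multipara untreated 2 (0.0787). In bulk RNA fewer β cells and less *Kcnj11* RNA per β cell cannot be told apart, and the 9 summed β cell markers, most of which is insulin RNA, were at 120389 to 226148 CPM with S-961 and 455314 to 612741 CPM without. The 6 markers other than the insulin genes and *Kcnj11* summed to 18262 to 34443 CPM with S-961 and 29843 to 37511 CPM without, so that the ranges overlapped. Of the 9 markers 2 were called higher and 4 lower in each parity group, and their part in the result was not tested.

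The partner of *Kcnj11*, the sulfonylurea receptor gene *Abcc8*, lies beside it on chromosome 7 (46104523 to 46180033). Its values were 822 and 912 CPM in the virgin untreated, 781 and 923 CPM in the multipara untreated, 1063, 1063 and 804 CPM in the virgin S-961 and 1060.1, 869, 1337 and 1049 CPM in the multipara S-961 libraries. No comparison called *Abcc8*, and the S-961 difference was 0.17 ± 0.20 in virgin and 0.34 ± 0.19 in multipara mice (log2; edgeR adjusted p = 0.54 and edgeR adjusted p = 0.186). Per length, *Abcc8* stood at 2.23 to 2.42 times *Kcnj11* in untreated libraries and at 3.26 to 5.10 times with S-961, ranges that did not overlap and in which TMM and library totals give the same ratio.

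Below these came *Kcnmb2*, a beta subunit of the large-conductance calcium-activated channel, at 18.6 to 39.4 CPM per kb over the libraries. *Kcnk1*, a weakly conducting two-pore-domain subunit, ranged from 9.33 to 22.4, *Kcnh2*, the Erg channel of repolarisation, from 11.8 to 18.2, and *Kcnip1*, a calcium-binding partner of Kcnd channels, from 9.07 to 11.9 CPM per kb. *Kcnmb2* was above *Kcnk1* in 9 of 11 libraries, and *Kcnh2* above *Kcnip1* in 11 of 11. The order of other neighbours went with the treatment, since *Kcnk1* was above *Kcnh2* in 0 of 4 untreated but 6 of 7 S-961 libraries, and *Kcnip1* above *Kcnh6* in 4 of 4 untreated but 2 of 7 S-961 libraries. *Kcnma1*, the pore that *Kcnmb2* accompanies, had 36.5 and 36.5 CPM in the virgin untreated, 29.1 and 37.1 CPM in the multipara untreated, 50.2, 52.1 and 32.1 CPM in the virgin S-961 and 51.6, 30.2, 45.4 and 53.5 CPM in the multipara S-961 libraries, and no comparison called it.

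**Figure D2:**
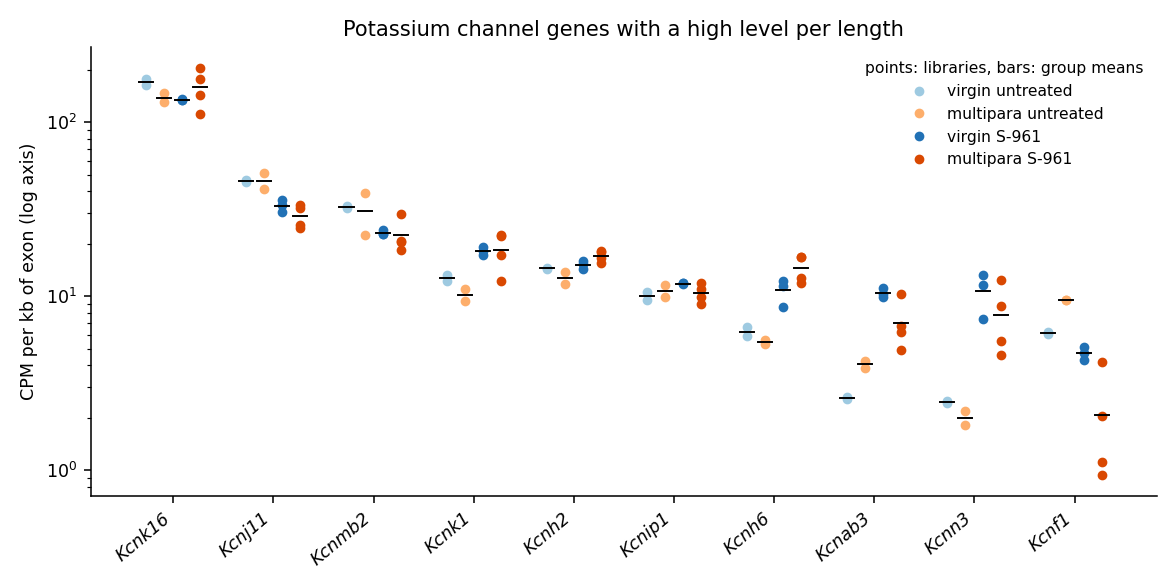
Level per length (vertical log axis, CPM per kb of exon) of 10 of the 12 highest potassium channel genes in each library (points) and the group means (bars), in the 4 groups. Kcnk16 is above every other gene in all 11 libraries, and Kcnab3, Kcnn3 and Kcnh6 are higher in both S-961 groups than in both untreated groups.

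To find which channels followed insulin receptor blockade, S-961 and untreated libraries were compared within virgin and within multipara mice. In virgin mice 13 channel genes rose and 10 fell of 70 tested (32.9%), against 36.5% of all genes (edgeR, adjusted p under 0.05). In multipara mice 14 rose and 5 fell (27.1%), against 37.6% of all genes. Neither share was above that over all genes. The median log2 change of the 70 genes was -0.03 in virgin and 0.39 in multipara mice, beside -0.04 and 0.03 over all genes. The treated and untreated groups did not overlap for 25 higher and 21 lower channel genes in virgin mice (all genes 32.8% and 35.5%) and for 21 higher and 12 lower in multipara mice (24.5% and 24.5%). With library totals in place of TMM the median of all genes moved to 0.43 and 0.61, and the channel calls became 21 higher and 7 lower in virgin and 31 higher and 2 lower in multipara mice. The treatment cannot be told apart from any unrecorded difference in handling between treated and untreated animals.

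Both comparisons called 8 genes higher (among them *Kcnab3*, *Kcnh1*, *Kcnh6*, *Kcnh7*, *Kcnip2*, *Kcnk12* and *Kcnn3*) and 3 genes lower (*Kcnip3*, *Kcnj11* and *Kcnu1*), and no gene was called in opposite directions. Of the 23 virgin calls 12 held under all 14 alternative settings of the fit (among them *Kcna5*, *Kcnab3*, *Kcnc4*, *Kcnh7*, *Kcnip3*, *Kcnj12*, *Kcnk10*, *Kcnk2*, *Kcnk3*, *Kcnn3* and *Kcnu1*), and of the 19 multipara calls 7 held under all 13 (among them *Kcnf1*, *Kcnh1*, *Kcnh6*, *Kcnip3*, *Kcnk12* and *Kcnn3*). Without virgin untreated replicate 1 or 2 the virgin count was 15 or 14, and without multipara untreated replicate 1 the multipara count was 12. The multipara calls lost without multipara untreated replicate 1 included those of *Kcna1*, *Kcnab1*, *Kcnab3*, *Kcnh2*, *Kcnh7*, *Kcnj15*, *Kcnk1* and *Kcnmb1*. Leaving out multipara S-961 4 gave 20 multipara calls.

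**Figure D3:**
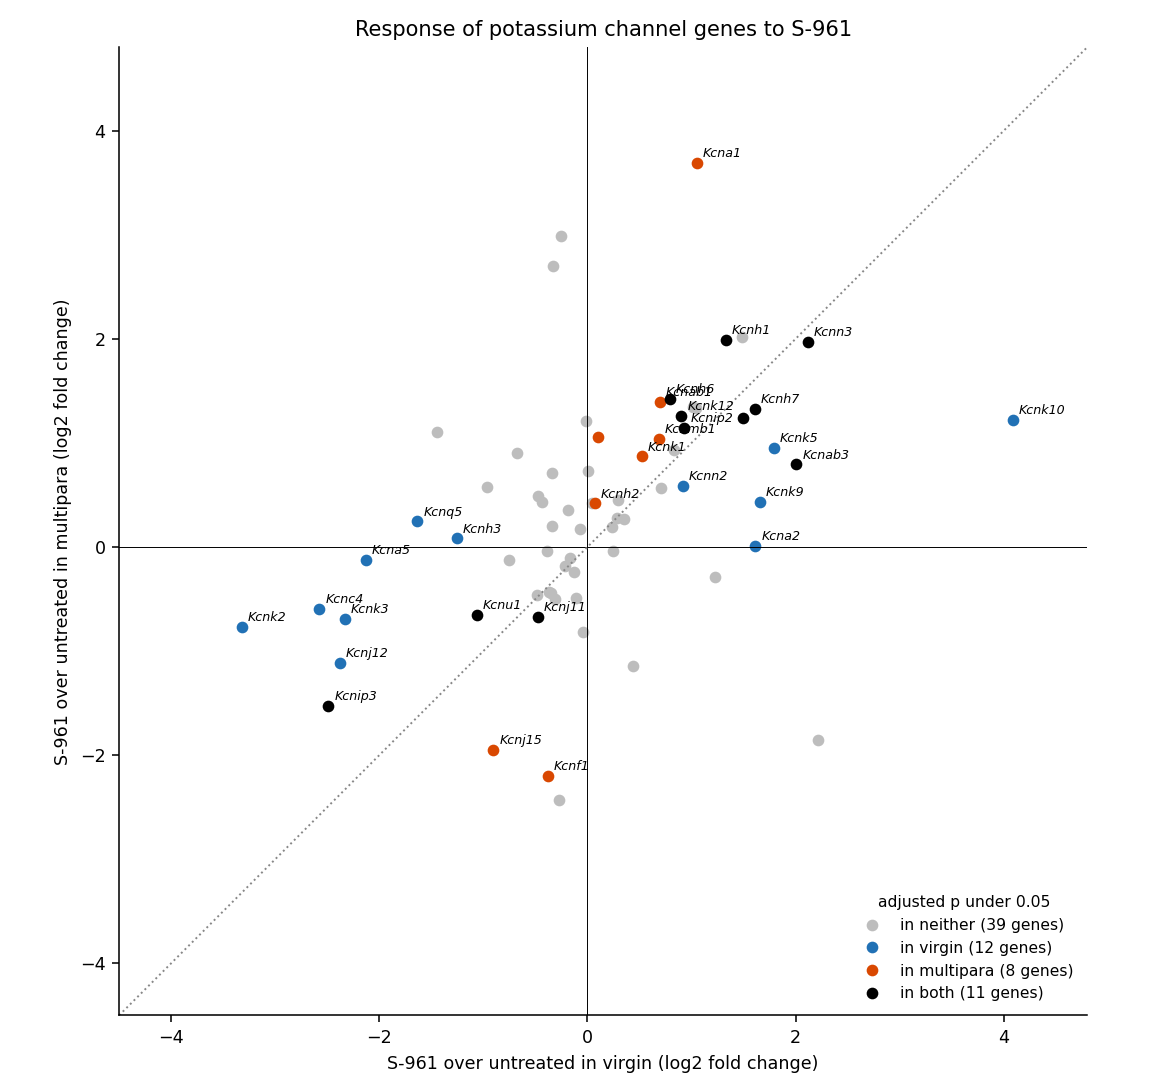
Log2 fold change of S-961 over untreated in virgin (horizontal) and in multipara mice (vertical) for the 70 potassium channel genes tested, each a point coloured by where its adjusted p was under 0.05, with the line of equal change dotted. Of the genes, 11 are called in both, 12 in virgin, 8 in multipara and 39 in neither, and the black points all lie where both changes have the same sign.

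Among calcium-activated channels, *Kcnn3*, a small-conductance channel opened by calcium alone, had one of the larger changes. Its values were 26.3 and 25.6 CPM in the virgin untreated, 18.98 and 22.9 CPM in the multipara untreated, 122, 138 and 77.1 CPM in the virgin S-961 and 92.4, 57.6, 47.7 and 129.7 CPM in the multipara S-961 libraries. All 7 treated libraries lay above all 4 untreated ones, and within multipara S-961 the library labelled 4 was the highest. *Kcnn3* was 4.33-fold higher in virgin (2.12 ± 0.41 on the log2 scale, edgeR adjusted p = 0.00272) and 3.91-fold higher in multipara mice (1.97 ± 0.40, edgeR adjusted p = 0.0035), and both calls held under all alternatives. Its relative *Kcnn2* rose in virgin mice by 0.92 ± 0.27 (edgeR adjusted p = 0.02), with 0.59 ± 0.25 in multipara mice (edgeR adjusted p = 0.0914). *Kcnmb1*, a beta subunit better known from smooth muscle, rose in multipara mice by 1.04 ± 0.34 (edgeR adjusted p = 0.0357), while *Kcnu1*, the pH-sensitive channel known from sperm, fell in both, by 1.06 ± 0.20 and 0.65 ± 0.19 on the log2 scale. The *Kcnmb1* call held under 6 of 13 alternatives. The *Kcnu1* call in multipara mice held under 7 of 13 and was lost under library totals, where its change was -0.06.

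The voltage-gated pores gave 5 rises and 4 falls in virgin mice and 7 rises and 1 fall in multipara mice, of 29 tested (all genes called, 36.5% and 37.6%). The ether-a-go-go genes (Kcnh) were the most numerous among the rises. *Kcnh6*, an Erg channel of islets, was at 20.9 and 23.6 CPM in the virgin untreated, 18.8 and 19.8 CPM in the multipara untreated, 43.6, 40.8 and 30.8 CPM in the virgin S-961 and 59.6, 42.5, 59.3 and 45.3 CPM in the multipara S-961 libraries. All treated libraries exceeded all untreated ones, by 0.79 ± 0.19 in virgin (edgeR adjusted p = 0.0095) and 1.42 ± 0.19 in multipara mice (edgeR adjusted p = 0.000444) on the log2 scale. *Kcnh1*, of the Eag type, rose by 1.33 ± 0.33 and 1.99 ± 0.33, and *Kcnh7*, the third Erg gene, by 1.61 ± 0.32 and 1.33 ± 0.31. *Kcnh2*, the most abundant of them, rose by 0.42 ± 0.11 in multipara mice (edgeR adjusted p = 0.0154) and had 0.07 ± 0.12 in virgin mice (edgeR adjusted p = 0.66). *Kcnh3*, an Elk channel, fell in virgin mice by 1.26 ± 0.31 (edgeR adjusted p = 0.00891).

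*Kcnc4*, a fast-inactivating channel of the Shaw type, had values of 6.96 and 10.6 CPM in the virgin untreated, 3.44 and 3.53 CPM in the multipara untreated, 1.45, 1.63 and 1.33 CPM in the virgin S-961 and 2.66, 1.80, 3.11 and 1.66 CPM in the multipara S-961 libraries. All S-961 libraries lay below all untreated ones. It fell in virgin mice by 2.58 ± 0.32 on the log2 scale (edgeR adjusted p = 0.000357), whereas the multipara difference was -0.59 ± 0.31 (edgeR adjusted p = 0.148).

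Shaker genes (Kcna) also split. *Kcna2* rose in virgin mice by 1.61 ± 0.51 (edgeR adjusted p = 0.0305), from 8.91 and 7.86 CPM to 31.2, 28.7 and 17.1 CPM, and was 0.01 ± 0.46 in multipara mice. *Kcna5* fell in virgin mice by 2.13 ± 0.35 (edgeR adjusted p = 0.00121) from 7.54 and 9.35 CPM to between 1.42 and 2.26 CPM. *Kcna1* was called higher in multipara mice at no more than 0.75 CPM in any library, so that its log2 change of 3.69 ± 1.20 rests on few counts. *Kcnf1*, a silent subunit that modifies other voltage-gated pores, fell in multipara mice by 2.20 ± 0.44 (edgeR adjusted p = 0.00341), and the M-current gene *Kcnq5* fell in virgin mice by 1.63 ± 0.57 (edgeR adjusted p = 0.0449), the latter at no more than 1.12 CPM in any library. That *Kcnq5* call held under 5 of 13 alternatives and was lost with DESeq2.

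Of 9 auxiliary subunits of voltage-gated channels tested, 2 rose and 1 fell in virgin and 3 rose and 1 fell in multipara mice (all genes called, 36.5% and 37.6%). *Kcnip3*, a calcium sensor that binds Kcnd channels and also acts as a transcriptional repressor, was at 14.2 and 18.8 CPM in the virgin untreated, 9.34 and 11.9 CPM in the multipara untreated, 2.50, 3.23 and 3.07 CPM in the virgin S-961 and 3.47, 4.34, 4.48 and 2.36 CPM in the multipara S-961 libraries. The highest S-961 library, at 4.48 CPM, lay well below the lowest untreated one, at 9.34 CPM, and *Kcnip3* was 5.62-fold lower in virgin (-2.49 ± 0.28 on the log2 scale, edgeR adjusted p = 0.000221) and 2.89-fold lower in multipara mice (-1.53 ± 0.26, edgeR adjusted p = 0.00137). Its relative *Kcnip2* rose by 0.93 ± 0.32 and 1.14 ± 0.31, *Kcnip1* had 0.24 ± 0.13 and -0.04 ± 0.13, and *Kcnip4* had -0.16 ± 0.21 and -0.11 ± 0.20, the last 2 genes not called.

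*Kcnab3*, a cytoplasmic beta subunit of Shaker channels, was at 7.58 and 7.34 CPM in the virgin untreated, 12.2 and 11.03 CPM in the multipara untreated, 31.9, 29.6 and 28.5 CPM in the virgin S-961 and 19.2, 17.9, 14.1 and 29.5 CPM in the multipara S-961 libraries. Treated libraries exceeded untreated ones throughout, and multipara S-961 4 sat with the virgin S-961 libraries. The rise was 2.01 ± 0.27 in virgin (edgeR adjusted p = 0.000446) and 0.79 ± 0.24 in multipara mice (edgeR adjusted p = 0.0265). Exons of some channel genes overlap a gene on the other strand. Among them are *Kcna6*, *Kcnab1*, *Kcnab3*, *Kcnd3*, *Kcnh3*, *Kcnh7*, *Kcnip4*, *Kcnj6*, *Kcnj15*, *Kcnk1*, *Kcnk2*, *Kcnk3*, *Kcnma1*, *Kcnn1*, *Kcnn2*, *Kcnq1* and *Kcnq5*. The libraries were stranded but the strand setting of the counting was not given in the sources used here.

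**Figure D4:**
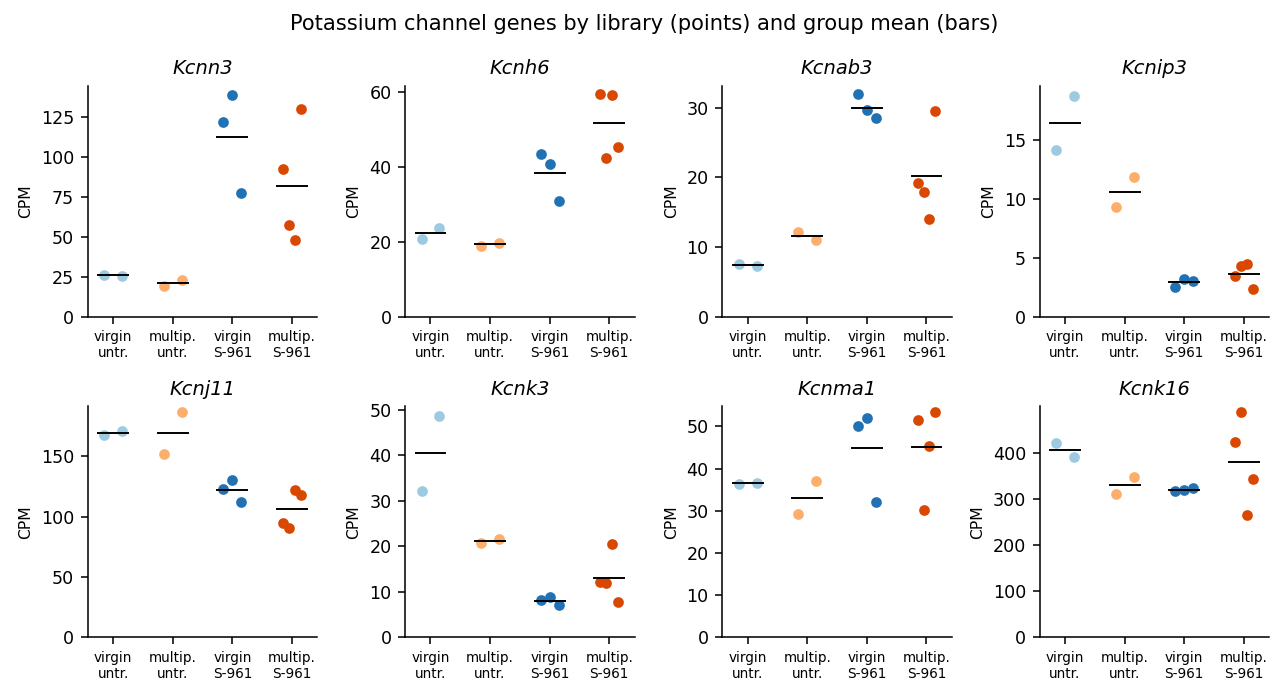
CPM (vertical axes, from 0) of 8 potassium channel genes in each library (points) with group means (bars). Kcnn3, Kcnh6 and Kcnab3 are higher and Kcnip3 and Kcnj11 lower in every S-961 library than in every untreated one, whereas the groups of Kcnk16 and Kcnma1 overlap.

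Of the 10 two-pore-domain genes tested, 4 rose and 2 fell in virgin mice, and 2 rose in multipara mice (all genes called, 36.5% and 37.6%). The acid-sensitive TASK gene *Kcnk3*, one of the known islet channels, was at 32.3 and 48.7 CPM in the virgin untreated, 20.8 and 21.5 CPM in the multipara untreated, 8.25, 8.78 and 7.02 CPM in the virgin S-961 and 12.3, 11.9, 20.4 and 7.74 CPM in the multipara S-961 libraries. All treated libraries lay below all untreated ones, and the fall of 2.33 ± 0.32 on the log2 scale in virgin mice was called (edgeR adjusted p = 0.000544), whereas the -0.69 ± 0.30 in multipara mice was not (edgeR adjusted p = 0.0943). The mechanically gated TREK genes moved apart in virgin mice. *Kcnk10* rose by 4.08 ± 0.80 (edgeR adjusted p = 0.00292) and *Kcnk2* fell by 3.32 ± 0.46 (edgeR adjusted p = 0.000579), while multipara mice had 1.22 ± 0.67 and -0.77 ± 0.43, neither called. *Kcnk5* and *Kcnk9*, also acid-sensitive, rose in virgin mice by 1.79 ± 0.38 and 1.65 ± 0.55. *Kcnk12*, a halothane-inhibited channel, rose in both, by 0.90 ± 0.22 and 1.26 ± 0.22, and *Kcnk1* in multipara mice, by 0.87 ± 0.22 (edgeR adjusted p = 0.0114).

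No inward rectifier of the 12 tested was called higher, against 18.8% of all genes in virgin and 18.2% in multipara mice. *Kcnj8*, not called, was at 0.918 and 1.53 CPM in the virgin untreated and at 2.38, 2.84 and 3.36 CPM in the virgin S-961 libraries. Its multipara groups overlapped. Besides *Kcnj11*, *Kcnj12*, a strong inward rectifier known from muscle, fell in virgin mice from 7.15 and 9.47 CPM to between 1.51 and 1.70 CPM (-2.38 ± 0.49 on the log2 scale, edgeR adjusted p = 0.00378), and *Kcnj15* fell in multipara mice by 1.95 ± 0.69 (edgeR adjusted p = 0.0455) at no more than 1.05 CPM. The *Kcnj15* call held under 3 of 12 alternatives. The G protein-gated genes gave 0.01 ± 0.43 and 0.73 ± 0.42 for *Kcnj6* and 2.22 ± 1.03 and -1.85 ± 0.82 for *Kcnj5*, not called.

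The sequence before the start of 4 of these genes is shown because *Kcnk16* had the highest level, *Kcnn3* and *Kcnh1* the largest rises common to both comparisons among genes of at least 1 mean log2 CPM with an entry, and *Kcnip3* was the common fall with an entry. Each line gives the 250 bases upstream of the RefSeq start in GRCm38.p6, 5′ to 3′ on the strand of the gene, with the GC box (GGGCGG, either strand) in capitals. They come from chr14:20269270-20269519 (minus), chr3:89519914-89520163 (plus), chr1:192190527-192190776 (plus) and chr2:127522095-127522344 (minus).
Kcnk16: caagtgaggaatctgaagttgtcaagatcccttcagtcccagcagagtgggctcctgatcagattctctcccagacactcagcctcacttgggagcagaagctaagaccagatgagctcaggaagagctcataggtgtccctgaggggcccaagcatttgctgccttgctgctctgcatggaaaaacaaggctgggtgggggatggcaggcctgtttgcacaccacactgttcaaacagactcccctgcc
Kcnn3: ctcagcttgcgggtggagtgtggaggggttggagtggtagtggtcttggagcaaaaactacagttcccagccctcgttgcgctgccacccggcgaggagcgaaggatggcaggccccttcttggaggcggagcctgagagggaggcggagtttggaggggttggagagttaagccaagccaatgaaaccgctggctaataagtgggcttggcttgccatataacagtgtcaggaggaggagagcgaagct
Kcnh1: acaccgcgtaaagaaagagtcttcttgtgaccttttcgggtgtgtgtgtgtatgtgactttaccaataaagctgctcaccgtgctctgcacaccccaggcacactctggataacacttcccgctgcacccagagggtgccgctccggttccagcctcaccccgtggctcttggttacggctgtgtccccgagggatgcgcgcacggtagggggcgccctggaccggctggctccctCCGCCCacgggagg
Kcnip3: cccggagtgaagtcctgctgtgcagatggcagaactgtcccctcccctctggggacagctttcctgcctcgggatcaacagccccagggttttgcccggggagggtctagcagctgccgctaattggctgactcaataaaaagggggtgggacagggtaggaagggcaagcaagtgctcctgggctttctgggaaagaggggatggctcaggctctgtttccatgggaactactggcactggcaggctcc

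Only the *Kcnh1* stretch held a GC box, and none of these 4 stretches held an E-box (CACGTG), a cAMP response element (TGACGTCA) or a TATA box (TATAAA) on either strand. Starts on chromosome 18, where *Kcng2* and *Kcnn2* lie, were left out of all these counts. An entry then existed for 67 of the 92 genes, with 92 starts in all. *Kcnj11* and *Kcnab3* were not matched. A GC box was in 44.6% of the starts of channel genes and in 32.7% of all 32851 starts, and in 5 of the 6 starts of genes that rose in both comparisons. The median share of G and C letters was 58.6%, 52.4% and 65.8% in these 3 sets, and its part in the GC box counts was not tested. An E-box was in 6.52% and 6.02%, a TATA box in 3.26% and 12.4%, and a cAMP response element in 0 of the 92 and in 1.55% of all. These are counts of letters in a fixed window and say nothing about binding.

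Whether multiparity altered the channels under S-961 was asked by comparing the 4 multipara with the 3 virgin S-961 libraries. None of 68 channel genes and none of 16784 genes in all (0%) was called by edgeR, with 10 channel genes higher and 4 lower at an unadjusted p under 0.05 (all genes 8.03% and 1.68%). DESeq2 called 1 channel gene, *Kcnq5* (all genes 2.2%). The groups did not overlap for 8 higher and 3 lower channel genes (all genes 5.23% and 3.64%), and the median log2 change was 0.09 beside 0.00 over all genes.

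The 3 genes with the smallest p were *Kcnq5*, *Kcnab2* and *Kcnk9*. *Kcnq5* had 0.124, 0.272 and 0.129 CPM in virgin and 1.11, 1.02, 1.11 and 0.65 CPM in multipara libraries, a difference of 2.47 ± 0.48 on the log2 scale (unadjusted p = 0.000578, edgeR adjusted p = 0.315). *Kcnab2*, a Shaker beta subunit, was higher in all multipara libraries (0.75 ± 0.23, edgeR adjusted p = 0.355), and for *Kcnk9* every multipara library but the third was below every virgin one (-1.33 ± 0.46, edgeR adjusted p = 0.381). Without multipara S-961 4, edgeR called 3 channel genes (all genes 3.16%), *Kcnq5* at 2.62, *Kcnf1* at -1.76 and *Kcnab3* at -0.79. Summed cycling markers were at 116 to 257 CPM in multipara S-961 1 to 3, at 9.34 CPM in multipara S-961 4 and at 7.08 to 23.4 CPM in virgin S-961 libraries. The cycling ranges of the 2 parity groups thus overlapped. Summed α cell markers (12541 to 13399 CPM in virgin and 14589 to 21698 CPM in multipara S-961 libraries) and stromal markers (180.4 to 216 and 254 to 392 CPM) did not overlap between these groups. No gene of these 3 lists was called by edgeR in this comparison, and the part of all 3 lists in these differences was not tested.

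Without treatment the same question rested on 2 libraries against 2. EdgeR called none of 63 channel genes and none of 15812 genes (0%), with 6 channel genes higher and 12 lower at an unadjusted p under 0.05 (all genes 2.52% and 3.1%), and DESeq2 called *Kcnf1* and *Kcnj5* (all genes 0.354%). The groups did not overlap for 8 higher and 21 lower channel genes (all genes 17.3% and 18.8%), and the median was -0.14 beside 0.02 over all genes.

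*Kcnf1* had the smallest p in this comparison, 0.64 ± 0.07 (unadjusted p = 0.000595, edgeR adjusted p = 0.719). *Kcnj5*, a G protein-gated inward rectifier, had 0.268 and 0.363 CPM in virgin and 3.80 and 2.27 CPM in multipara libraries (3.26 ± 0.45, edgeR adjusted p = 0.719), and *Kcna5* had -1.16 ± 0.20 (edgeR adjusted p = 0.719). *Kcnj11* was at 0.00 ± 0.11. Without multipara untreated 2 the test called 14 channel genes, 7 in each direction (all genes 10.3%), and without multipara untreated 1 it called none (all genes 0.326%).

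In the library labelled multipara untreated 1 several channels stood above every other library, and those described here were picked after their values were seen. *Kcnj10* (2.46 CPM against at most 1.74), *Kcne4* (2.41 against at most 2.01) and *Kcnc1* (0.536 against at most 0.438) were also highest there. The share of all genes that were highest in this library was not counted, so that the list cannot be read as particular to channels. *Kcnn4*, a calcium-activated channel known from lymphocytes and red cells, was at 9.29 CPM against 1.64 to 3.32 CPM in the other 10 libraries. *Kcnab2* was at 10.8 against 2.63 to 5.82 CPM, *Kcnk6* at 4.73 against 1.08 to 2.11 CPM, and *Kcna3*, the voltage-gated channel of T cells, at 0.67 against 0 to 0.257 CPM. *Kcnj5* was at 3.80 against 0.175 to 2.72 CPM, and *Kcnq5* at 1.117 against 0.124 to 1.112 CPM. The macrophage, lymphocyte and red cell markers were highest in the same library, at the values given above, with no marker of these lists at 0 in all libraries; their part in these levels was not tested.

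The difference between the parity effects with and without S-961 was tested as an interaction. EdgeR called none of 70 channel genes and none of 17996 genes (0%), with 14 channel genes higher and 6 lower at an unadjusted p under 0.05 (all genes 4.27% and 2.28%), and DESeq2 called *Kcnc4* and *Kcna5* (all genes 0.45%). So a call in virgin and not in multipara mice, or the reverse, is not a shown difference between them. The median interaction was 0.32 over the channel genes and -0.04 over all genes. Without multipara S-961 4 edgeR called 2, *Kcnf1* at -2.41 and *Kcnab3* at -1.46 (all genes 0.252%).

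For 5 of the 92 channel genes the libraries labelled multipara and virgin were fully separated in one order without treatment and in the opposite order with S-961. The reversal rests on the parity labels of the S-961 libraries, and with those labels exchanged both orders would be the same. How many of all genes reversed in this way was not counted, so that the number cannot be read as particular to channels. Over all genes, 17.3% were fully higher and 18.8% fully lower in multipara libraries without treatment, and 5.23% and 3.64% with S-961. *Kcnf1* had 29.8 and 28.9 CPM in the virgin untreated, 45.5 and 45.6 CPM in the multipara untreated, 24.5, 20.6 and 22.6 CPM in the virgin S-961 and 5.31, 4.48, 9.83 and 19.98 CPM in the multipara S-961 libraries. It was higher in multipara than virgin libraries untreated and lower with S-961, where the library labelled 4, at 19.98 CPM, came nearest to the virgin values. *Kcnk10* took the same order, with 0.459 and 0.242 CPM in the virgin untreated, 0.849 and 1.26 CPM in the multipara untreated, 6.58, 6.00 and 5.50 CPM in the virgin S-961 and 2.30, 2.50, 0.489 and 4.52 CPM in the multipara S-961 libraries. *Kcnk2*, *Kcnc4* and *Kcna6* took the reverse order, lower in multipara libraries untreated and higher with S-961. *Kcnk2* was at 2.60 and 2.66 CPM in the virgin untreated, 0.804 and 1.01 CPM in the multipara untreated, 0.247, 0.241 and 0.291 CPM in the virgin S-961 and 0.786, 0.64, 0.386 and 0.296 CPM in the multipara S-961 libraries. The interactions were -1.82 ± 0.67 for *Kcnf1*, -2.86 ± 0.97 for *Kcnk10*, 2.55 ± 0.65 for *Kcnk2*, 1.98 ± 0.45 for *Kcnc4* and 2.56 ± 0.86 for *Kcna6*, with adjusted p-values of 0.409 to 0.704 by edgeR.

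**Figure D5:**
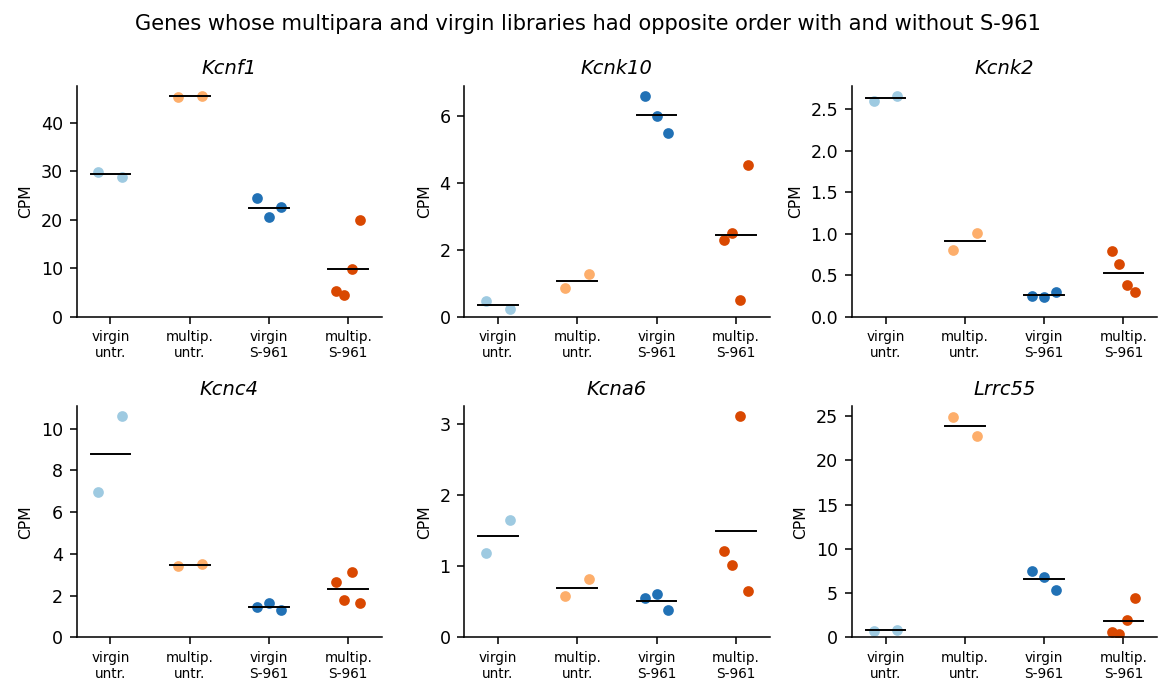
CPM (vertical axes, from 0) in each library (points) with group means (bars) for the 5 potassium channel genes, and for the accessory gene Lrrc55, whose multipara and virgin libraries were separated in opposite order with and without S-961. As labelled, Kcnf1, Kcnk10 and Lrrc55 are higher in multipara mice without S-961 and lower with it, and Kcnk2, Kcnc4 and Kcna6 the reverse, an order that rests on the parity labels of the S-961 libraries.

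Of 11 accessory genes that lie outside the symbol rule, 10 were tested. *Lrrc55*, a gamma subunit of the large-conductance calcium-activated channel, was at 0.727 and 0.847 CPM in the virgin untreated, 24.9 and 22.8 CPM in the multipara untreated, 7.54, 6.82 and 5.34 CPM in the virgin S-961 and 0.596, 0.32, 1.96 and 4.43 CPM in the multipara S-961 libraries. The untreated multipara libraries stood far above all others and the untreated virgin ones were near the low end. With S-961, multipara 1 to 3 were at 0.32 to 1.96 CPM and the other 4 libraries at 4.43 to 7.54 CPM, the same split as for the cycling markers, so that the direction below depends on the labels. *Lrrc55* rose with S-961 in virgin (3.06 ± 0.89, edgeR adjusted p = 0.021) and fell in multipara mice (-3.71 ± 0.70, edgeR adjusted p = 0.00241), while neither the untreated parity difference (4.92 ± 0.18, edgeR adjusted p = 0.0561) nor the interaction (-6.76 ± 1.17, edgeR adjusted p = 0.372) was called.

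The other accessory genes called with S-961 were *Dpp6* and *Dpp10*, partners of Kcnd channels, which fell in virgin mice by 1.19 ± 0.24 and 0.90 ± 0.19, *Amigo1*, a partner of delayed rectifier channels, which rose there by 0.52 ± 0.15, the lysosomal channel gene *Tmem175*, which fell by 0.62 ± 0.17, and *Lrrc26*, which rose in multipara mice by 1.55 ± 0.51. In the parity comparisons and the interaction edgeR called 0 of these genes, with unadjusted p-values under 0.05 for *Amigo1*, *Dpp6* and *Lrrc55* with S-961 and for *Dpp6*, *Dpp10* and *Lrrc55* without treatment and in the interaction. DESeq2 called *Lrrc55* without treatment and in the interaction.

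Among 14 genes of the steps around the channels, from glucose entry to calcium and sodium currents, 2 rose and 5 fell in virgin and 2 rose and 4 fell in multipara mice with S-961. Over all genes 36.5% were called in virgin and 37.6% in multipara mice, and the list was not tested against these shares. The calcium-activated cation channel *Trpm5* fell by 1.46 ± 0.27 and 2.08 ± 0.25, *Trpm4* by 1.14 ± 0.18 and 1.07 ± 0.16, and *Cacnb3*, a calcium channel beta subunit, by 0.97 ± 0.19 and 0.51 ± 0.18. The sodium channel gene *Scn3a* rose by 1.97 ± 0.26 and 2.27 ± 0.26. *Scn9a* rose in virgin mice (1.01 ± 0.28), and *Cacnb2* rose in multipara mice (0.60 ± 0.17). Neither parity comparison nor the interaction called any of the 14 by edgeR or DESeq2, and 1 unadjusted p was under 0.05, that of *Scn9a* without treatment. Of the 20 channel genes listed as known in islets, 4 rose and 2 fell in virgin and 3 rose and 2 fell in multipara mice, of 19 tested (all genes called, 36.5% and 37.6%). Further members were *Kcnn1* (-0.37 ± 0.26 and -0.44 ± 0.25), *Kcnq1* (-0.34 ± 0.32 and 0.71 ± 0.32), *Kcnd3* (-0.01 ± 0.51 and 1.21 ± 0.54), *Kcnc2* (-0.48 ± 0.40 and 0.49 ± 0.40), *Kcns3* (-0.25 ± 1.21 and 2.99 ± 1.36), none called, and *Kcng2*, which did not pass the filter.

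Acinar markers moved with the treatment beside all of these S-961 results, with 8 of the 9 genes called higher in each parity group and none at 0 in all libraries. Other islet cell types moved as well. Summed α cell markers were at 44695 to 50455 CPM in the virgin untreated and 12541 to 13399 CPM in the virgin S-961 libraries (3 of 4 genes called lower), with 2 of 4 called higher and 1 lower in multipara mice. Pancreatic polypeptide cell markers were called lower for 2 of 2 genes in each parity group, δ cell markers for 2 of 2 in virgin mice, and 3 of 6 stromal markers were called higher in multipara mice. The part of these lists in the channel differences was not tested.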

How the data were processed

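Islet RNA was poly(A)-selected and made into strand-specific libraries. For each library the authors deposited a table of expected counts (estimated counts of reads per gene) without normalization. Per the labels, the submitters' processing notes name STAR, RSEM and the build GRCm38 (versions not given in the sources used here). All 92 channel genes had the identifier and symbol of GENCODE M21, which gave coordinates and exon lengths. In 12 of them some value was not whole, so that reads shared with other genes were divided there.

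Expected counts were rounded. CPM used TMM factors over all 11 libraries. Tests were the quasi-likelihood F-test of edgeR 4.0.16 (R 4.3.3) after filterByExpr (minimum count 10, minimum total 15), adjusted over all genes tested by the Benjamini-Hochberg method at 0.05. Each parity comparison was fitted on its own libraries, and the S-961 contrasts and the interaction on all 11. Standard errors were taken from the fold change and its F value. The fits were tested on simulated data. DESeq2 1.42.0, other scalings, filters and thresholds, and leaving out each library were the alternatives.

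Groups came from the labels. Replicates of a group differed by a mean chi-square per gene of 8.89 to 116, so that none was a copy of the counts of another. These values cannot show whether replicates come from different mice. Virgin S-961 1 and 2 were the closest, at 8.89, against 53.8 and 59.1 to virgin S-961 3. Total counts of 22028507 to 32234146 put 10 counts below 1 CPM in every library. Genes were named by a rule: Kcnj11 and Abcc8, the 12 highest per length, the highest of each class, called genes (up to 10 for each comparison, by size, above a mean log2 CPM of 1), the 3 smallest p-values where none was called, 20 channels known in islets, and called genes of 11 accessory and 14 secretion genes. Other members are named where a count of their class is spelled out, and these, the genes of opposite order and those high in multipara untreated 1 were chosen after their values were seen. The members and lists were chosen with earlier results of these data known. Some genes that these rules name are not reported here. Promoter sequences are from RefSeq (GRCm38.p6). Plots were drawn with matplotlib 3.10.9 in Python 3.11.15.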

Additional observations from a re-analysis of the deposited data

Results flagged for a closer look

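Of 41 named channel genes tested for a library far from the others in the group of 4, 1 was flagged. *Kcnj12* was at 7.39 CPM in the library labelled multipara S-961 3, against 2.79, 1.98 and 2.28 CPM in the other multipara S-961 libraries. The gap to the nearest library was 0.85 of the range of the group, above Dixon's 95% critical value for 4 samples. Chance flags about 1 in 20 groups.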

How the results depend on the processing

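For the 5 counts of called channel genes, these alternatives moved the count by over 1.5 times or from 0. With DESeq2, 1 gene was called for multipara over virgin with S-961, 2 without treatment and 2 for the interaction. For S-961 over untreated in multipara mice, where edgeR called 19, a threshold of 0.1 gave 31, library totals without TMM gave 33, and the multipara libraries alone gave 10. Leaving out 1 library gave 0 to 3 calls for multipara over virgin with S-961 (3 without multipara S-961 replicate 4), 0 to 14 without treatment (14 without multipara untreated replicate 2), 14 to 24 for S-961 in virgin mice (15 and 14 without virgin untreated replicate 1 and 2), 12 to 26 for S-961 in multipara mice (12 without multipara untreated replicate 1) and 0 to 2 for the interaction (2 without multipara S-961 replicate 4). Omitting multipara S-961 4 or multipara untreated 1 from the shared spread of the virgin S-961 contrast, a choice made after seeing the data, gave 24 and 23. The 10 highest genes per length shared 9 or 10 genes with the list made without any 1 library, and 7 with the list from untreated libraries alone.

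With the replicate number as a block (replicate block) 1 channel gene was called for multipara over virgin with S-961 (*Kcnf1*) and 2 for the interaction (*Kcnab3* and *Kcnf1*), and the count moved from 23 to 21 and from 19 to 18 for S-961 in virgin and multipara mice. The labels do not say that a number marks a shared animal, litter or day, and the deviations of same-numbered S-961 libraries correlated at 0.06, 0.01 and 0.09, so that the numbers were not taken to pair the samples.

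Over 45 results for single genes, 653 values were computed under alternatives, of which 563 kept direction and side of the threshold, 82 kept the direction but were no longer called, and 8 changed sign. These 8 were all for *Kcnj11* in untreated multipara over virgin mice, which lay near 0 throughout: -0.000912 with DESeq2 size factors, -0.0517 with library totals, -0.011 with no filter, -0.0014 with DESeq2, -0.0036 with the replicate block, -0.00204 with all 11 libraries in 1 model, and -0.14 to 0.12 without 1 library (log2). The cause of these shifts was not tested. Depth limits the 18 genes that reached 10 counts in no library, for which differences were not detectable.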
